A study of Mus musculus with 35 samples.

Results

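Transcripts of the slow-twitch contractile apparatus were followed in mouse quadriceps through 9 genes: Myh7, Myl2, Myl3, Tnnt1, Tnni1, Tnnc1, Tpm3, Myoz2 and Myh7b. A gene was taken by an exact match of the annotated symbol, and all 9 were found among 19938 genes with a symbol of their own. Tpm3 had 4 rows in the deposited table, of which the row with the highest mean was used, and the other 8 genes had 1 row each. All animals were female mice of 2 months, and 1 array was made from the quadriceps RNA of each of 35 mice.

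There were 4 classes: untreated controls, Mstn-null mice, which lack functional myostatin, and mice given 1 dose or 4 doses of ActRIIB-Fc. ActRIIB-Fc is a soluble activin type IIB receptor that traps myostatin and related ligands outside the cell. Experiment 1 had 3 arrays per class. Experiment 2 was an independent repeat with 5 arrays each of control, 1 dose and 4 doses and 8 of Mstn-null. The strain, the size and spacing of the doses, and the nature of the null allele are not given in the sources used here. All classes are compared with the controls of the same experiment, so the comparisons share control arrays. A whole muscle was measured, so fewer slow fibres and less of these transcripts per fibre cannot be told apart.

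Slow (type I) fibres contract slowly and resist fatigue, and they build their sarcomeres from isoforms encoded by genes other than those used in fast fibres. Myosin, made of heavy and light chains, forms the thick filament and pulls on actin. Troponin C, I and T, together with tropomyosin, lie on the thin filament and make the pull depend on calcium. The mouse quadriceps is a mostly fast muscle with a small slow portion.

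The promoter windows of 5 genes are shown, picked by the values that follow. Over both experiments 8 of the 9 genes were lower in Mstn-null and in 4-dose muscle, among them Myh7, Tnnc1, Tnnt1 and Myoz2. Tnnt1 passed the 4-dose test over both experiments whichever array was left out. Myoz2 passed in 4 doses against Mstn-null over both experiments, as 1 of 9 genes, near the 11.4% of all genes called higher. Myh7b passed in no comparison. Each window is the 250 bases before the first annotated start of the gene in RefSeq on GRCm38.p6, written 5′ to 3′ on the strand of the gene. Myh7 is chr14:54994627-54994876 on the minus strand, Tnnc1 is chr14:31208062-31208311 on the plus strand, Myoz2 is chr3:123034988-123035237 on the minus strand, Tnnt1 is chr7:4515976-4516225 on the minus strand and Myh7b is chr2:155610993-155611242 on the plus strand. Capitals mark a match to the muscle element MCAT in Myh7 and Tnnc1 and a match to the MEF2 box in Myoz2.
Myh7: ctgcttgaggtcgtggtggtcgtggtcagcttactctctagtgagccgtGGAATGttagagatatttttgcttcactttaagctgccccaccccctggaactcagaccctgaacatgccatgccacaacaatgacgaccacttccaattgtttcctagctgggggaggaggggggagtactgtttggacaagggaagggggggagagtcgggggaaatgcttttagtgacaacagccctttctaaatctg
Tnnc1: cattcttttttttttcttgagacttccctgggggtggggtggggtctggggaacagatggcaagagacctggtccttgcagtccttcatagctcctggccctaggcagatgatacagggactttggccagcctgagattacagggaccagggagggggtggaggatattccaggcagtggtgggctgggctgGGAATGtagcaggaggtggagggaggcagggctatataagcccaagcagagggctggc
Myoz2: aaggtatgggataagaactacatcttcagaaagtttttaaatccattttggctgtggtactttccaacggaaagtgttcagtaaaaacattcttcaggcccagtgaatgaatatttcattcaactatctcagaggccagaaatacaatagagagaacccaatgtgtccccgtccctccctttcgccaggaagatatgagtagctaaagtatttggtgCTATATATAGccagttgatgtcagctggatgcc
Tnnt1: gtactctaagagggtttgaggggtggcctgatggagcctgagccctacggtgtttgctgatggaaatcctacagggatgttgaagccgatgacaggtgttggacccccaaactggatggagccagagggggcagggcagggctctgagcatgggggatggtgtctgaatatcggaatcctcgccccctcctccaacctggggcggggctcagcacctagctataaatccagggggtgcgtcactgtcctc
Myh7b: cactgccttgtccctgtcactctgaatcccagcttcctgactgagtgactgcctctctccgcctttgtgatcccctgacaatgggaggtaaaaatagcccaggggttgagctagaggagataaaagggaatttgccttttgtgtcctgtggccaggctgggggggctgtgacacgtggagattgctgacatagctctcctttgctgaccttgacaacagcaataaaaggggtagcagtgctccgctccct

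The following sequence elements, known from muscle promoters, were searched on both strands: MCAT (CATTCC), the E-box (CANNTG) and the MEF2 box (YTAWWWWTAR). In these patterns N is any base, Y is C or T, W is A or T, and R is A or G. All 9 genes matched a RefSeq promoter, with 13 windows in all because some have more than 1 start. MCAT occurred in 3 of the 13 windows, those of Myh7, Tnnc1 and Myl3, against 12.6% of 32851 windows of the same length over all genes. Its first base lay 201 bases upstream of the start in Myh7 and 58 bases upstream in Tnnc1, and Myl3 had matches at 177 and 149 bases. The E-box occurred in all 13 windows, against 66.2% of all windows, and the MEF2 box in 1, that of Myoz2 at 33 bases upstream, against 2.92%. None of the MCAT or MEF2 matches (0) overlapped an E-box, and a match describes the letters only.

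The deposited values are log2 expression levels, so a difference of 1 is a doubling. The median gene stood at 4.73 to 4.86 on arrays of the first experiment and at 6.34 to 6.54 on those of the second, and levels are therefore compared only within an experiment. As a check of the labelled tissue, the 6 skeletal muscle markers were bright, with means from 11.41 to 11.58 on arrays of experiment 1 and from 13.47 to 13.73 on those of experiment 2. The 7 cardiac markers averaged 4.82 to 5.17 and 6.21 to 6.59, close to the median gene. Mstn itself stood at 10.03 ± 0.16 (SD, n = 5) on control arrays of experiment 2 against 7.25 ± 0.49 (SD, n = 8) on null arrays, and at 7.35 ± 0.50 against 6.14 ± 0.48 (SD, n = 3 each) in experiment 1, although where its probes lie relative to the deleted part was not stated in these sources. Arrays of a group correlated across genes between 0.954 and 0.996.

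Of the 9 genes, 8 were lower in Mstn-null than in control muscle and 8 were lower after 4 doses when both experiments were fitted together. None (0) passed after 1 dose. The class means of these 8 genes had the same order in both experiments, with control highest, then 1 dose, 4 doses and Mstn-null. The exception, Myh7b, passed in no comparison. How many genes passed after 4 doses depended on single arrays.

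**Figure D1:**
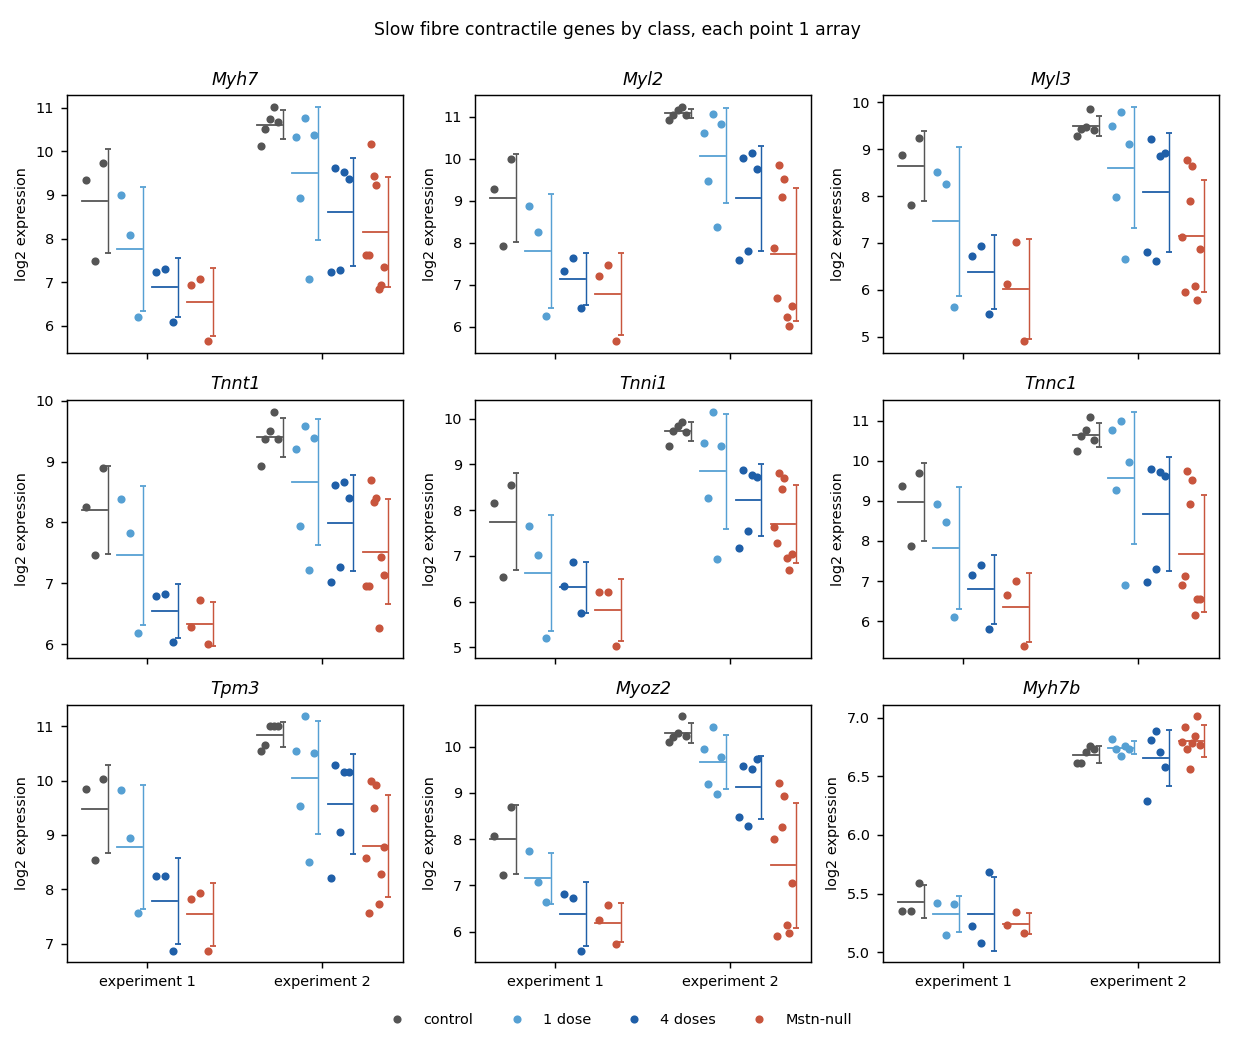
Log2 expression of each of the 9 genes (y axis) on every array, in 4 classes of experiment 1 (left) and experiment 2 (right), with the class mean as a line and the SD as a bar. The controls of experiment 2 sit close together, while the other classes of that experiment span from 1.44 to 4.08 log2 units for the 8 genes other than Myh7b.

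Myh7 encodes the slow myosin heavy chain, the defining motor of type I fibres. Its log2 level in experiment 1 was 9.34, 7.49 and 9.74 in controls, 8.99, 8.09 and 6.20 after 1 dose, 7.23, 7.31 and 6.09 after 4 doses, and 6.93, 7.06 and 5.64 in Mstn-null muscle. In experiment 2 it was 10.12, 10.52, 10.75, 11.02 and 10.68 in controls, 10.33, 8.94, 10.76, 7.06 and 10.38 after 1 dose, and 7.24, 9.61, 7.27, 9.53 and 9.37 after 4 doses. The 8 Mstn-null arrays of experiment 2 ran from 6.83 through a median of 7.62 to 10.16.

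All 4-dose values of Myh7 lay below all control values in both experiments. In experiment 2 a single Mstn-null array, at 10.16, reached into the control range, whose lowest value was 10.12. The 1-dose arrays covered both ends, with 1 array of each experiment as low as the Mstn-null group and others among the controls.

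Over both experiments Myh7 was lower in Mstn-null than in control muscle by a log2 change of -2.42 ± 0.47 (SE), a 5.36-fold difference (limma, adjusted p = 2.09e-04). After 4 doses the change was -2 ± 0.50, or 4-fold (limma, adjusted p = 0.0171). After 1 dose it was -1.11 ± 0.50 with a 95% interval from -2.13 to -0.09, which did not pass (limma, adjusted p = 0.36). Myh7 and the cardiac heavy chain gene Myh6 are near-identical over long stretches, and the probe positions are not given in the sources used here. Myh6, at 6.83 ± 0.14 (SD, n = 5) on control and 6.49 ± 0.29 (SD, n = 8) on null arrays of experiment 2, fell by 0.40 ± 0.10 (SE) on the log2 scale over both experiments (limma, adjusted p = 0.0031).

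Myl2, the regulatory light chain of slow and ventricular myosin, showed the largest Mstn-null change of the 9 genes over both experiments. In experiment 2 its log2 level was 10.93, 11.03, 11.15, 11.23 and 11.05 in controls, 7.59, 10.01, 7.81, 10.13 and 9.76 after 4 doses, and 10.62, 9.47, 11.06, 8.37 and 10.82 after 1 dose. The Mstn-null arrays ran from 6.03 through 7.27 to 9.86, so that neither they nor the 4-dose arrays overlapped the controls. In experiment 1 it was 9.27, 7.93 and 9.99 in controls and 7.21, 7.47 and 5.66 in Mstn-null muscle. The change over both experiments was -3.03 ± 0.49 (SE), an 8.19-fold difference, in Mstn-null muscle (limma, adjusted p = 2.64e-05) and -1.98 ± 0.52, or 3.95-fold, after 4 doses (limma, adjusted p = 0.0256). Myl3, the essential light chain of the same myosin, fell by 2.46 ± 0.45 (limma, adjusted p = 1.16e-04) and by 1.73 ± 0.49 (limma, adjusted p = 0.0375) on the log2 scale in the same comparisons.

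The slow troponin genes fell in both comparisons. Tnnt1, which anchors the troponin complex on tropomyosin, was 8.92, 9.37, 9.5, 9.82 and 9.38 in controls of experiment 2 and 7.02, 8.62, 7.26, 8.66 and 8.41 after 4 doses. Its Mstn-null arrays ran from 6.26 through 7.29 to 8.69, and every treated and null value except those of the 1-dose class lay below the lowest control. In experiment 1 Tnnt1 was 8.25, 7.46 and 8.90 in controls, 6.79, 6.82 and 6.04 after 4 doses, and 6.28, 6.72 and 6 in Mstn-null muscle, again without overlap.

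Over both experiments Tnnt1 changed by -1.88 ± 0.32 (SE) in Mstn-null muscle (limma, adjusted p = 5.15e-05) and by -1.50 ± 0.34 after 4 doses (limma, adjusted p = 0.00753). Tnnc1, the calcium-binding subunit, fell by 2.87 ± 0.52 in Mstn-null muscle (7.31-fold; limma, adjusted p = 9.45e-05) and by 2.05 ± 0.55 after 4 doses (4.14-fold; limma, adjusted p = 0.0295). Tnni1, the inhibitory subunit, fell by 2 ± 0.36 (limma, adjusted p = 9.45e-05) and by 1.48 ± 0.39 (limma, adjusted p = 0.0234). Of these 3 genes Tnnc1 varied most among treated mice: its 1-dose arrays of experiment 2 stood at 10.77, 9.26, 10.98, 6.90 and 9.98, a 16.9-fold range, where the controls spanned 1.79-fold.

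Tpm3 encodes the slow tropomyosin of muscle, and other products of the gene are made in most cells. The row used fell by 2.02 ± 0.35 (SE) on the log2 scale in Mstn-null muscle (limma, adjusted p = 6.28e-05) and by 1.43 ± 0.38 after 4 doses (limma, adjusted p = 0.0248). The other 3 Tpm3 rows had smaller changes, of which 2 passed in Mstn-null muscle. These were -0.69 ± 0.14 (limma, adjusted p = 3.01e-04), -0.31 ± 0.10 (limma, adjusted p = 0.0121) and -0.19 ± 0.08 (limma, adjusted p = 0.0574). After 4 doses those rows stood at -0.12, -0.09 and -0.10, and none (0 of 3) passed, the lowest adjusted p being 0.664 (limma). Which Tpm3 products each row detects was not stated in these sources.

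Myoz2, or calsarcin-1, is a Z-disc protein of slow and cardiac muscle that binds calcineurin. In experiment 2 its log2 level was 10.09, 10.21, 10.30, 10.65 and 10.22 in controls, 9.95, 9.19, 10.42, 8.98 and 9.77 after 1 dose, and 8.48, 9.58, 8.29, 9.51 and 9.73 after 4 doses. The Mstn-null arrays ran from 5.90 through 7.53 to 9.22. The 4-dose arrays lay wholly below the controls, and 2 of them, at 8.48 and 8.29, lay within the Mstn-null range.

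Over both experiments Myoz2 changed by -2.55 ± 0.36 (SE) in Mstn-null muscle, 5.88-fold (limma, adjusted p = 5.66e-06), and by -1.34 ± 0.39 after 4 doses, 2.53-fold (limma, adjusted p = 0.0494). It was the one gene of the 9 that passed in Mstn-null muscle of experiment 1 alone, at -1.80 ± 0.40 (limma, adjusted p = 0.0339). Its values there were 8.06, 7.22 and 8.70 in controls against 6.25, 6.58 and 5.74.

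Myh7b encodes a relative of the slow heavy chain. Its 35 values stayed near the median gene of the array, at 0.35 to 0.83 above it in experiment 1 and -0.08 to 0.47 in experiment 2. Controls of experiment 2 stood at 6.68 ± 0.07 (SD, n = 5), with 6.74 ± 0.06 (SD, n = 5) after 1 dose, 6.65 ± 0.23 (SD, n = 5) after 4 doses and 6.80 ± 0.13 (SD, n = 8) in Mstn-null muscle. In experiment 1 it was 5.43 ± 0.13 in controls, 5.33 ± 0.15 after 1 dose and 5.33 ± 0.31 after 4 doses (SD, n = 3 each). Mstn-null muscle there stood at 5.24 ± 0.09 (SD, n = 3), with its highest value of 5.34 just below the lowest control at 5.35. Over both experiments its changes were 0.02 ± 0.08 (SE), 0.00 ± 0.08 and -0.06 ± 0.08 for Mstn-null, 1 dose and 4 doses. The 95% interval in Mstn-null muscle ran from -0.14 to 0.17. Signal over background was not analysed here, so a row this close to the median gene may not be able to show a fall.

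Counted over the 9 genes, the comparison of Mstn-null with control muscle gave 1 lower gene in experiment 1, where 1.99% of all genes were called lower, and 8 in experiment 2, where 16.6% were. Over both experiments 8 were lower, against 16.4% of all genes, and the median change of the 9 was -2.42 against 0.09 over all genes. By experiment that median was -1.93 and -2.35, and 8 genes had an unadjusted p under 0.05 in each. The change did not pass as different between the experiments for any of the 9 (0 called, 0 at an unadjusted p under 0.05 in limma; 1.68% of all genes called), with intervals such as -2.27 to 1.97 for Myh7.

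After 4 doses 0 of the 9 passed in experiment 1 (0.171% of all genes were called lower) and 0 in experiment 2 (0.873%), with 8 at an unadjusted p under 0.05 in limma each time. Both experiments together gave 8, against 1.23% of all genes, with medians of -1.69 and -1.41 by experiment and -1.50 together, where the median of all genes was 0.02. The difference between experiments passed for 0 genes (0 at an unadjusted p under 0.05 in limma), against 0.00502% of all genes.

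After 1 dose 0 of 9 passed in experiment 1 (0.0201% of all genes lower), in experiment 2 (0.522%) or together (0.572%). At an unadjusted p under 0.05 limma gave 0, 0 and 5 genes. The median change of the 9 was -0.97 over both experiments, and the 95% interval of Tnni1 ran from -1.75 to -0.18. The difference between experiments passed for 0 of 9 genes, 0 also at an unadjusted p under 0.05 in limma, and for 0% of all genes.

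**Figure D2:**
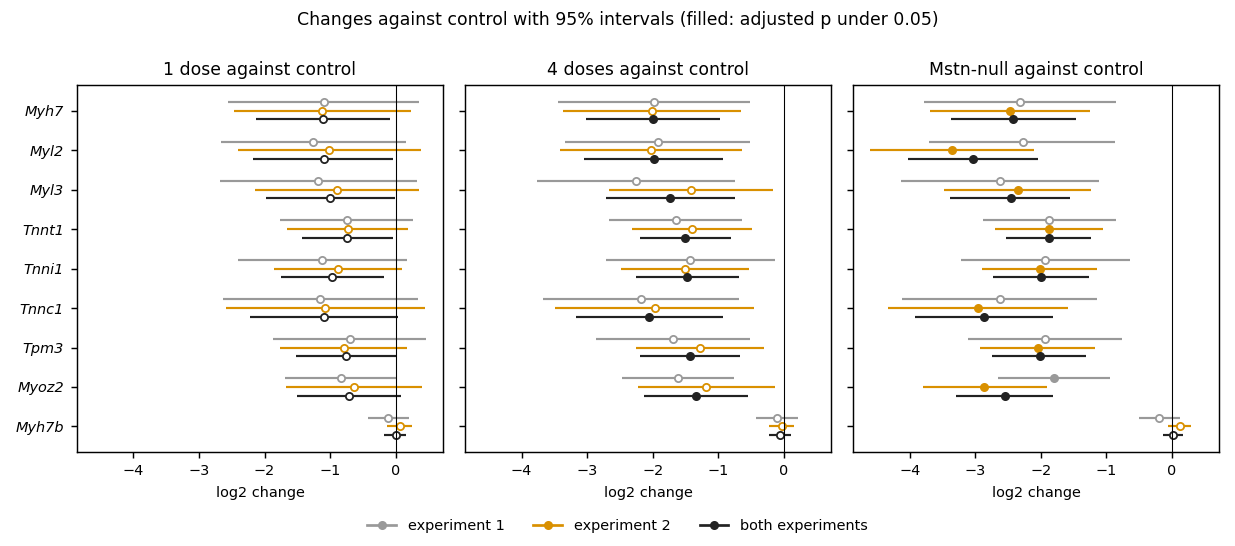
Log2 change against control (x axis) with its 95% interval for each of the 9 genes after 1 dose, after 4 doses and in Mstn-null muscle, in experiment 1, experiment 2 and both together. Filled points passed an adjusted p of 0.05 in limma: 8 genes in Mstn-null muscle in experiment 2 and over both experiments, Myoz2 there in experiment 1, 8 after 4 doses over both only, and none after 1 dose.

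Doses were compared with each other directly. In 4 doses against 1 dose, 0 of the 9 genes passed in experiment 1 (0.241% of all genes called in either direction), in experiment 2 (0.211%) or over both (0.321%), with 0, 0 and 1 at an unadjusted p under 0.05 in limma. All 9 estimates over both experiments were below 0, with a median of -0.73. The widest interval among the most affected genes, that of Tnnc1, ran from -2.08 to 0.17, and that of Tnnt1 from -1.46 to -0.07 (limma, adjusted p = 0.581). These data therefore left room for a difference between doses of up to about the size of the change from control.

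The treated classes were also set against Mstn-null muscle. With 4 doses 0 of the 9 genes were higher in experiment 1 (0 at an unadjusted p under 0.05 in limma; 0.00502% of all genes called higher), 1 in experiment 2 (14.5%) and 1 over both (11.4%). The counts of 1 were near those shares of all genes, and both became 0 with the interquartile range of each array as a covariate. The gene called was Myoz2 each time. It was higher after 4 doses by 1.68 ± 0.46 (SE) in experiment 2 (limma, adjusted p = 0.00928) and by 1.21 ± 0.36 over both (limma, adjusted p = 0.0189). Without 4-dose replicate 5 of experiment 2 its call over both was lost (limma, adjusted p = 0.0561), and in experiment 2 alone the count became 2 without Mstn-null replicate 3 or 5.

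With 1 dose, 0 of the 9 were higher than in Mstn-null muscle in experiment 1 (3 at an unadjusted p under 0.05 in limma; 1.61% of all genes called higher). In experiment 2 it was 2, Myl2 at 2.34 ± 0.61 (SE) and Myoz2 at 2.22 ± 0.46 (limma, adjusted p = 0.0144 and 0.00421), against 8.95% of all genes. Over both experiments 8 were higher, against 10.9% of all genes, from 1.03 for Tnni1 to 1.93 for Myl2, and 0 with the interquartile range of each array as a covariate. The call for Myh7 was the closest to the threshold (1.31 ± 0.47; limma, adjusted p = 0.0499).

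How far single arrays carried these changes was followed through the mean of the 9 genes on each array. In experiment 2 the controls stood at 9.57, 9.80, 9.94, 10.15 and 9.86. The 4-dose arrays stood at 7.31, 9.20, 7.56, 9.11 and 9.03, so that replicates 1 and 3 were 2.56 and 2.31 below the control mean (differences of -2.56 and -2.31) and the other 3 between 0.67 and 0.84 below (-0.67 to -0.84). The 1-dose arrays stood at 9.69, 8.59, 10.07, 7.49 and 9.56, of which replicate 4 was as low as both low 4-dose arrays.

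The Mstn-null arrays of experiment 2 also split, with replicates 3, 4 and 5 at 9.11, 8.50 and 8.85 and the other 5 between 6.58 and 7.50. In experiment 1 the controls stood at 8.50, 7.36 and 8.94, 1 dose at 8.26, 7.67 and 6.13, 4 doses at 6.87, 7 and 5.97, and Mstn-null at 6.52, 6.81 and 5.60. Control replicate 2 was the lowest control there by over 1 log2 unit. The SD of the array mean was 0.21 (n = 5) for controls of experiment 2, against 1.04 (n = 5) for 1 dose, 0.93 (n = 5) for 4 doses and 1.01 (n = 8) for Mstn-null. In experiment 1 the controls, with an SD of 0.82, spread more than 4 doses (0.56) and Mstn-null (0.63) and less than 1 dose (1.10; n = 3 each).

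**Figure D3:**
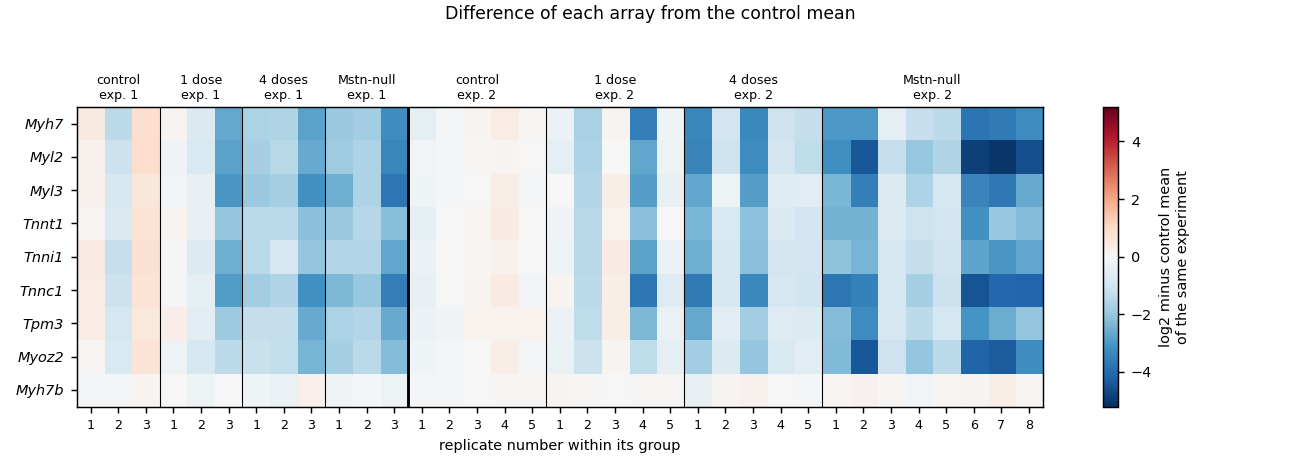
Difference of each array (columns, by class and experiment) from the control mean of its experiment for each of the 9 genes (rows), in log2 units. The low arrays, among them 4-dose replicates 1 and 3 and 1-dose replicate 4 of experiment 2, are low for 8 genes at once, and the Myh7b row stays near 0.

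Even the less affected arrays lay below the controls. On the 4-dose arrays of experiment 2, 8 or 9 of the 9 genes were below the lowest control on each array. For 8 genes all 4-dose values were below all control values in that experiment, as held for 2.8% of all genes, and for 7 in experiment 1, as held for 7.8%. The exceptions were Myh7b in both experiments and Tnni1 in experiment 1.

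In Mstn-null muscle 9 genes in experiment 1 and 7 in experiment 2 lay wholly below the controls, against 13.9% and 5.52% of all genes. In the 1-dose class it was 0 and 0, against 4.47% and 2.94%. Those counts of 0 rested on single arrays in part: without control replicate 2 of experiment 1 it was 7, without 1-dose replicate 1 of experiment 1 it was 1, and without 1-dose replicate 3 of experiment 2 it was 2. The share of all genes is not given for these smaller sets, where fewer arrays make full separation easier.

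The calls were repeated with each of the 35 arrays left out in turn. Over both experiments 8 genes stayed lower in Mstn-null muscle each time. After 4 doses the count ran from 1 to 8. It was 1 without 4-dose replicate 3 of experiment 2, when Tnnt1 alone passed, and 2, Myh7 and Tnnt1, when either 4-dose replicate 1 of experiment 2 or control replicate 3 of experiment 1 was dropped. It was 3 without 4-dose replicate 3 of experiment 1, 4 without control replicate 4 of experiment 2, and 5 when control replicate 1 of experiment 1 or control replicate 3 of experiment 2 was dropped. Without both low 4-dose arrays of experiment 2 it was 0. In experiment 2 alone the 4-dose count was 1, Tnni1, without 1-dose replicate 4, and 0 otherwise.

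The sizes moved less than the calls. The Myh7 change after 4 doses stayed between -2.21 and -1.80 whichever array was left out, with an adjusted p between 0.00813 and 0.0515 (limma). Tnnt1 passed in 35 of 35 runs with an adjusted p of at most 0.0226 (limma), Myh7 in 34, Tnni1 in 32 and Myoz2 in 12.

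For 1 dose against Mstn-null the count over both experiments ran from 4, without 1-dose replicate 3 of experiment 2, to 8, and was 5 without 1-dose replicate 1 of experiment 1. In experiment 2 alone it ran from 1, without that same 1-dose replicate 3, to 8, without 1-dose replicate 4 or Mstn-null replicate 3, and was 7 and 5 without Mstn-null replicates 5 and 4. In Mstn-null muscle of experiment 1 the call for Myoz2 was lost without control replicate 1 or 3 or any of the 3 Mstn-null arrays, and the count rose to 5 without 4-dose replicate 3, to 4 without 1-dose replicate 3 and to 2 without 1-dose replicate 1, which enter that fit through the shared spread.

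**Figure D4:**
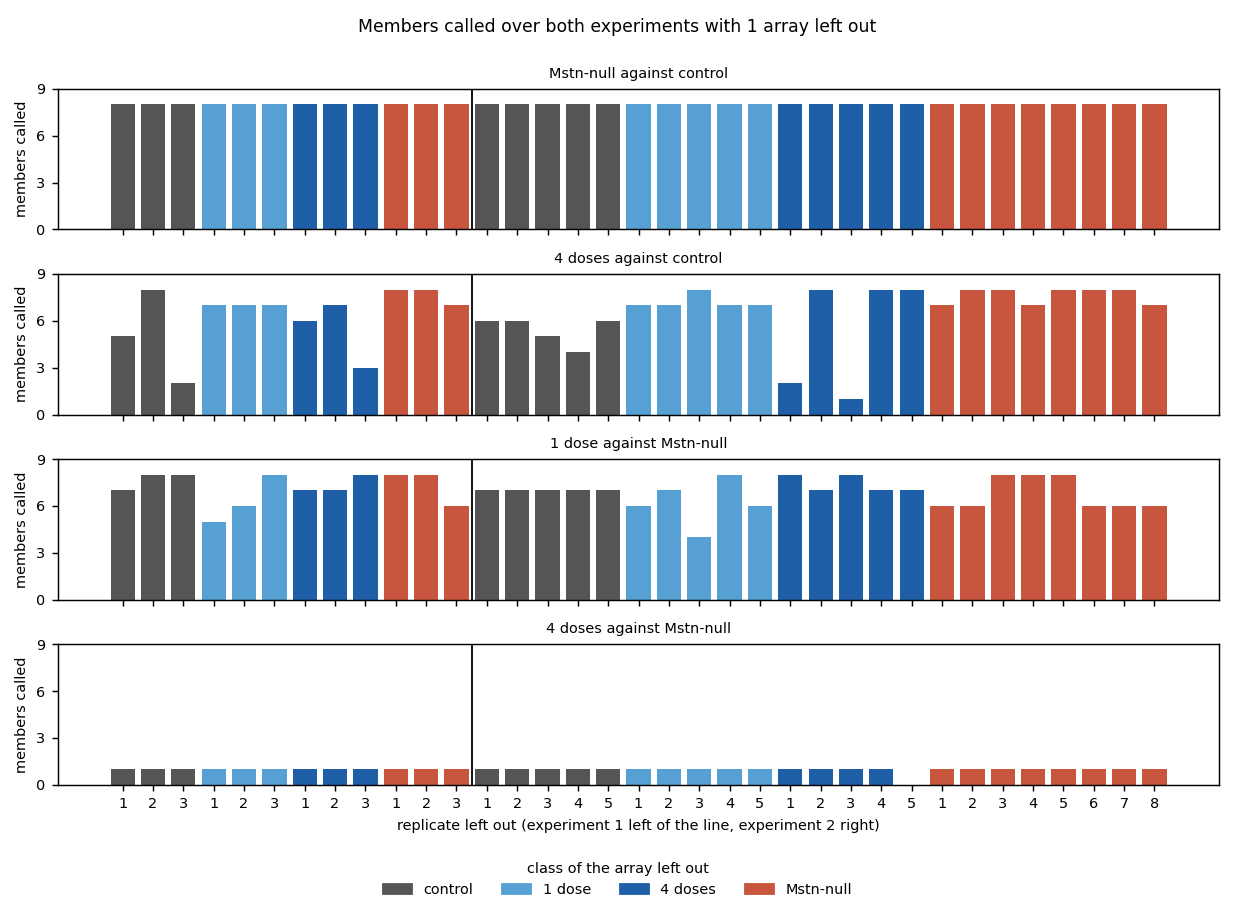
Number of the 9 genes called over both experiments (y axis) when 1 array is left out (x axis, coloured by the class of that array), for 4 comparisons. The count stays at 8 for Mstn-null against control and falls as low as 1 for 4 doses against control.

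The 8 genes other than Myh7b went up and down together from array to array. With group means subtracted, their 28 pairwise correlations over 35 arrays ran from 0.80 to 0.98 with a median of 0.94, while those of Myh7b with the others ran from -0.27 to -0.07. Myoz2 was the least tied of the 8, at 0.80 to 0.92 with the other 7. The points of each correlation share an RNA sample and an array. Over all other genes, the 10 whose level followed the mean of the 9 most closely, with experiment means subtracted and over 35 arrays, were Atp2a2 (r = 0.98), Esrrg (0.91), Lmod2, Csrp3, Hspb7 and Rcan2 (0.89 each), and Myom3, Mb, Smtnl1 and Bdh1 (0.88 each).

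A list of 15 other slow or oxidative fibre genes gave 13 lower genes in Mstn-null muscle over both experiments, against 16.4% of all genes. It gave 0 after 1 dose (2 at an unadjusted p under 0.05 in limma; 0.572% of all genes lower) and 5 after 4 doses (1.23%). The median changes were -1.02, -0.16 and -0.34, each smaller than the -2.42, -0.97 and -1.50 of the contractile genes. Ldhb, the heart form of lactate dehydrogenase, fell by 1.80 ± 0.22 (SE) on the log2 scale in Mstn-null muscle (limma, adjusted p = 4.24e-07) and by 1.18 ± 0.23 after 4 doses (limma, adjusted p = 0.00148). Atp2a2, the slow calcium pump of the sarcoplasmic reticulum, fell by 1.96 ± 0.33 (limma, adjusted p = 3.79e-05) and by 1.39 ± 0.35 (limma, adjusted p = 0.0167). Mb, or myoglobin, fell by 1.66 ± 0.23 (limma, adjusted p = 3.01e-06) and by 0.94 ± 0.24 (limma, adjusted p = 0.0217).

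Fast contractile genes had changes close to 0 on the whole. In controls their mean stood far above the median gene, at 11.35 to 11.39 in experiment 1 and 13.25 to 13.36 in experiment 2. Whether rows this bright can show a rise in full was not tested. In Mstn-null muscle 3 of 15 fast contractile genes were lower and 1 was higher, with a median change of -0.01, where 16.4% of all genes were lower and 25.4% higher. After 4 doses 3 were higher, with a median of 0.07, where 1.91% of all genes were higher. After 1 dose 0 passed (1 at an unadjusted p under 0.05 in limma; 0.572% of all genes lower and 0.542% higher). Myh4, the heavy chain of the fastest fibres, changed by 0.08 ± 0.04 (SE) in Mstn-null muscle (limma, adjusted p = 0.101). The light chains Myl1 and Mylpf, counterparts of Myl3 and Myl2, rose after 4 doses by 0.34 ± 0.07 (limma, adjusted p = 0.00293) and 0.28 ± 0.06 (limma, adjusted p = 0.00536). Tnnc2, the counterpart of Tnnc1, was lower in Mstn-null muscle, with a change of -0.34 ± 0.09 (limma, adjusted p = 0.00453).

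Myh2, the heavy chain of the fast oxidative fibres, fell by 1.30 ± 0.26 (SE) in Mstn-null muscle (limma, adjusted p = 2.46e-04), and Myh1 by 0.42 ± 0.10 (limma, adjusted p = 0.00161). With group means subtracted Myh2 correlated with the mean of the 9 genes at r = 0.63 over 35 arrays. Mstn-null replicates 6, 7 and 8 of experiment 2 had Myh2 at 10.53, 8.86 and 10.51, against 12.43 to 12.67 in controls. Mstn-null replicate 1, with a slow gene mean of 7.50, had Myh2 at 12.17. The 4-dose replicates 1 and 3, low for the slow genes, had the lowest Myh2 of their class, at 11.69 and 11.41 against 12.11 to 12.19.

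The mean of the fast list, which includes Myh2, was 13.01, 12.89, 13 and 13.05 on Mstn-null replicates 2, 6, 7 and 8 of experiment 2, below the controls at 13.25 to 13.36, and 13.28 to 13.36 on replicates 1, 3, 4 and 5. On the 4-dose arrays it was 13.38 to 13.41, with both arrays of low slow gene level inside that narrow range. The 1-dose replicate 4, low for the slow genes, had the highest value of its class at 13.39.

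**Figure D5:**
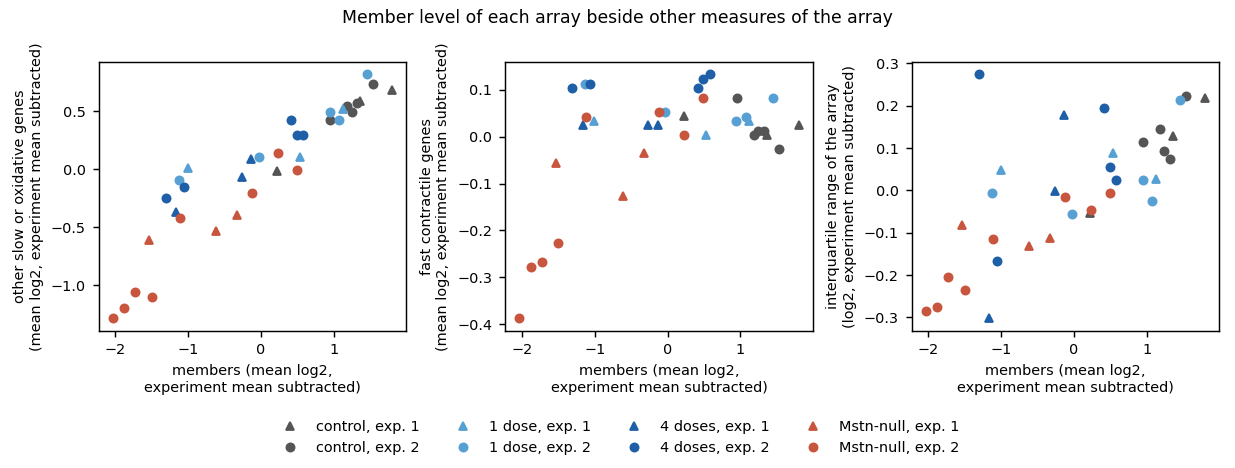
Mean log2 level of the 9 genes on each array (x axis) beside the mean of 15 other slow or oxidative genes, the mean of 15 fast contractile genes and the interquartile range of the array (y axes), with experiment means subtracted. Over all 35 arrays the other slow genes follow the 9 (r = 0.92), and no correlation was computed by class. The fast gene mean of experiment 2 drops clear of the other arrays on 4 Mstn-null arrays only, which also have the narrowest ranges of that experiment.

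The spread of values on an array also differed between classes. The interquartile range over all genes was 2.39 to 2.44 on Mstn-null and 2.47 to 2.74 on control arrays of experiment 1, and 2.14 to 2.42 against 2.50 to 2.65 in experiment 2, without overlap, so the range and the genotype cannot be told apart there. With that range as a covariate the 8 Mstn-null calls over both experiments became 1, Myoz2, with Myh7 at -1.29 and Myl2 at -1.81 (limma, adjusted p = 0.19 and 0.0656), and the 4-dose calls became 2, Myh7 and Tnnt1. The calls of 1 dose and of 4 doses against Mstn-null became 0 and 0. After quantile normalization within each experiment, which gives all arrays 1 distribution, 8 genes were lower in Mstn-null muscle and 6 after 4 doses. For these refits the share of all genes called is not given. A loss of calls among the slow genes therefore cannot be told apart from a loss over all genes. The range of 4-dose replicate 1 of experiment 2, low for the slow genes, was 2.70, the widest of that experiment, and that of 4-dose replicate 3 was 2.26.

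Markers of other cell types were read on the same arrays, to be set against the 16.4% of all genes lower and the 25.4% higher in Mstn-null muscle and the 1.23% and 1.91% after 4 doses. Of 6 endothelial markers 4 fell in Mstn-null muscle over both experiments, and their mean was 7.39 to 8.39 there against 8.22 to 8.28 in controls of experiment 2. Of 6 tendon markers 2 fell, and their mean was 7.46 to 7.88 against 7.78 to 8.11. Of 6 macrophage markers 3 rose in Mstn-null muscle and 4 after 4 doses, with means of 6.84 to 7.81 and 7.52 to 7.83 against 6.64 to 7.05. Of 5 adipocyte markers measured, 1 fell in Mstn-null muscle.

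Of the 7 cardiac markers, 1 fell and 2 rose in Mstn-null muscle and 1 rose after 4 doses, and of 6 skeletal muscle markers 2 rose in Mstn-null muscle. Over both experiments none of the marker lists had a gene called after 1 dose (0), where 0.572% of all genes were lower and 0.542% higher. At an unadjusted p under 0.05 limma gave 4 macrophage, 2 endothelial, 1 cardiac and 1 skeletal muscle marker and 0 adipocyte and tendon markers. In experiment 2 alone 1 macrophage marker was higher after 1 dose, where 142 of 19938 genes were higher. With group means subtracted, the mean of the 9 genes correlated over 35 arrays with endothelial (r = 0.49), tendon (0.52) and macrophage markers (0.46), with the fast list (0.45) and with the interquartile range (0.51), and hardly with cardiac (0.03) or adipocyte markers (0.09). The part of these measures in the slow gene changes was not tested.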

How the data were processed

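The authors deposited log2 expression values of 35 Affymetrix arrays, made with RMA per the submitters' processing notes, where limma 3.4.4 and R 2.11.1 are listed too. Joint or separate normalization of the experiments, genome build and probe positions were not stated in these sources. Of 35556 rows, 21789 carried a single gene symbol and were used (1621 carried several, 12146 had none). The brightest row stood for each of 999 genes that had several, which left 19938 genes and no filter on dim ones.

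Classes were compared within each experiment, over both with experiment as a term, and between experiments by interaction contrasts, using lmFit and eBayes of limma 3.58.1 (R 4.3.3; two-sided). A gene was called at a Benjamini-Hochberg adjusted p under 0.05 over all genes. The fits were tested on simulated data. Per the labels the replicates are biological, and precision is limited by the number of arrays.

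The 9 genes and all lists were chosen with earlier results of these data known. Named were the 9 genes, up to 4 genes of each fibre list by smallest p, fast counterparts, Mstn, and the 10 genes most correlated with the mean of the 9. Others singled out, such as Myh6, were chosen after their values were seen. Alternatives were other scalings, array spread as a covariate, a filter, array weights, other eBayes settings, the mean of all rows of a gene, a replicate block, and leaving out arrays.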

Additional observations from a re-analysis of the deposited data

How the results depend on the processing

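Each count of called genes (of 9) was recomputed under every alternative, and no change of a called gene turned its sign. For Mstn-null against control in experiment 1 (1 gene) the count was 0 with arrays centred on their medians, 0 with the interquartile range as a covariate, 4 with dim genes filtered, 8 with array quality weights, 4 with the replicate block, and 0 to 5 with single arrays left out. In experiment 2 (8 genes) it was 0 with the covariate, and over both experiments (8 genes) 1 with the covariate. For 4 doses against control array weights gave 1 in experiment 1 and 2 in experiment 2, and single arrays left out gave 0 to 1 in experiment 2. Over both experiments (8 genes) it was 2 with the covariate, 5 with trend and robust settings, 1 to 8 with single arrays left out and 0 without both low 4-dose arrays. Of those 8 genes 1 lost its call with arrays centred on their medians, 1 with array weights and 1 with the mean of all rows. Quantile normalization removed 2 of the calls. For 1 dose against control array weights gave 1 gene, Tnni1, over both experiments, and the genes wholly below the controls ran from 0 to 7 in experiment 1 and 0 to 2 in experiment 2 with single arrays left out. For 4 doses against Mstn-null in experiment 2 (1 gene) it was 0 with the covariate, 2 with array weights, 0 with the replicate block, 4 without both low 4-dose arrays and 1 to 2 with single arrays left out; over both (1 gene) it was 0 with the covariate, 0 with the replicate block and 0 to 1 with single arrays left out. For 1 dose against Mstn-null in experiment 2 (2 genes) it was 0 with the covariate, 5 with dim genes filtered, 1 with the replicate block and 1 to 8 with single arrays left out; over both (8 genes) it was 0 with the covariate, 5 with array weights, 1 with the replicate block and 4 to 8 with single arrays left out. The share of all genes called is not given for the alternatives, nor is the share wholly below the controls for sets with an array left out. The cause of these moves was not tested.

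The labels do not say whether the replicate numbers pair the mice. Same-numbered arrays deviated together (r over 0.1) in 5 of 18 pairs of experiment 1 and 11 of 30 of experiment 2. Differently numbered arrays were not compared in the same way, so these counts cannot decide whether the numbers pair mice. Leaving out both low 4-dose arrays, and the other Tpm3 rows, were chosen after seeing the data. Signal over background was not analysed here.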

Other observations

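The light chain gene Myl2 was set against the heavy chain gene Myh7 on each array. The difference between their log2 values, whose absolute size has no meaning because it compares 2 rows, had a median of 0.40 in controls, 0.44 after 1 dose and 0.40 after 4 doses in experiment 2. In Mstn-null muscle of that experiment its median was -0.45, from -0.94 to 0.28, with 6 of 8 arrays below the lowest value of the other classes, 0.22. In experiment 1 the Mstn-null median was 0.28, against 0.25 in controls. This was noticed after the values were seen, and no test was run. On Mstn-null replicates 2, 6, 7 and 8 of experiment 2 Myl2 stood at 6.68, 6.24, 6.03 and 6.51, near the median gene at 6.44 to 6.54. On replicates 3 and 4, with differences of -0.30 and -0.32, it stood at 9.86 and 9.10. The part of background signal in the difference was not tested.

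Myoz2 was likewise set against Myh7. Its log2 value minus that of Myh7 was 1.24 and 1.02 on 4-dose replicates 1 and 3 and 1.92 on 1-dose replicate 4 of experiment 2, against -0.46 to -0.03 in controls. On the 8 Mstn-null arrays it ran from -1.72 to 0.39, with a median of -0.81. On 1-dose replicate 3 of experiment 1, the low array of that class, it was 0.44, against -1.27 to -0.27 in controls. The 4-dose arrays of experiment 1, also low for the slow genes, stood within that control range, at -0.41, -0.58 and -0.50. These values, too, were singled out after they were seen. On Mstn-null replicates 2, 6 and 7 of experiment 2 Myoz2 itself stood at 5.90, 6.14 and 5.98, below the median gene, and the part of background there was not tested.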
